A study of Danio rerio with 3 samples.

Results

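The sodium pump, or sodium-potassium ATPase, is the enzyme in the plasma membrane that uses ATP to move sodium out of the cell and potassium in. Its alpha subunit binds the ions and splits ATP, and its beta subunit is a glycoprotein needed for the enzyme to fold and reach the membrane. In brain the pump restores the ion gradients that action potentials and synaptic currents run down, and it is one of the main users of ATP there. Zebrafish carry duplicated copies of several subunit genes, marked a and b, and a row of neighbouring atp1a1a genes.

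Of 10 listed subunit genes, 5 alpha and 5 beta, 8 could be followed here, among 17958 named genes kept for comparison. The alpha genes were atp1a1a.4, atp1a1b and atp1a3b, and the beta genes were atp1b1a, atp1b1b, atp1b2a, atp1b2b and atp1b3a. The list was selected on gene identity with earlier results of these arrays in view, among them the large sleep-deprived over naive difference of atp1a1a.4, so all values below are a description. The remaining members, atp1a2a and atp1a3a, had no probe set of their own in the annotation used here. A probe set annotated to both atp1a3a and atp1a3b was counted for neither gene, and its values are given separately. All 8 measured members stayed above the dim limit of 3.45, the lower quartile of all deposited values, on each of the 3 arrays.

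Brain RNA was taken from zebrafish aged 6 months that were held at 28 °C, with 1 array for each condition. Sleep-deprived fish had been exposed to extended light, a day of 24 h light and 0 h dark, for 3 days. Fear-conditioned fish had been trained by inhibitory avoidance learning, in which an animal learns to hold back a response that is followed by an aversive event, and their hours of light are not stated. Naive fish, the control, had days of 14 h light and 10 h dark. Strain, sex, time of sampling, and whether an array held RNA of 1 fish or of a pool are not stated in the labels. With 1 array per condition no difference has a replicate check, an SD or a p-value, and the number of arrays limits the precision. Each value is a log2 signal as deposited, a difference of 1 is 2-fold, and differences are taken between arrays for the same gene. Levels of different genes or probe sets are compared only for the dim limit, level classes, brighter or dimmer probe sets and a marker check. In whole brain RNA, fewer cells of a type and less RNA per cell cannot be told apart. The brain label was checked with neuronal markers, where elavl3 had log2 signals of 10.217, 10.199 and 10.199 and snap25a of 11.98, 11.90 and 11.98 on the sleep-deprived, fear-conditioned and naive arrays. Such a check does not show whether other tissue was also present.

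Among the members, 1 gene passed 2-fold. The alpha gene atp1a1a.4 was 2.12-fold higher in sleep-deprived than in naive brain and 2.66-fold higher in sleep-deprived than in fear-conditioned brain. The other 7 members differed by less than 1.5-fold in all 3 comparisons. The alpha gene atp1a3b was highest in fear-conditioned brain, and atp1a1b and atp1b1a were lowest in sleep-deprived brain. The beta gene atp1b1b had exactly the same value on the 3 arrays.

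**Figure D1:**
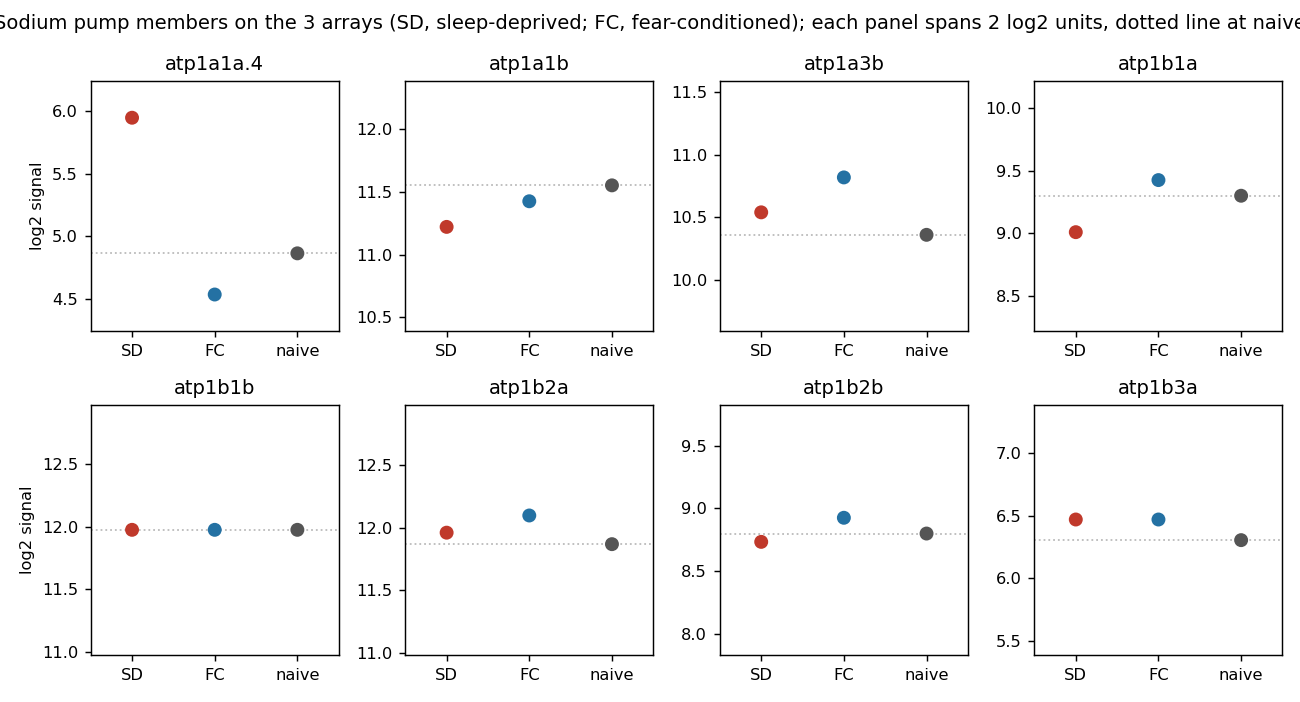
Log2 signal (vertical axis) of the 8 measured sodium pump genes on the sleep-deprived (SD), fear-conditioned (FC) and naive arrays, 1 point per array, each panel spanning 2 log2 units, with a dotted line at the naive value. The atp1a1a.4 point for sleep-deprived brain, at 5.95, stands well above those for fear-conditioned (4.54) and naive brain (4.87), while atp1b1b lies at 11.98 on the 3 arrays.

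In sleep-deprived over naive, 1 of 8 members passed 2-fold upward and 0 downward, beside 0.0947% and 0.668% of all kept genes. At 1.5-fold the members' counts were again 1 upward and 0 downward, beside 0.484% and 2.43% of all kept genes. The median over the 8 members was 0.05 and their mean 0.10, whereas the median over all kept genes was 0.00 and their mean -0.03. With quantile normalization the members' median in this comparison was 0.0179. Since the members were chosen with this contrast known, nothing is read from these shares.

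In fear-conditioned over naive, 0 of 8 members passed 2-fold or 1.5-fold in either direction. Among all kept genes, 0.245% passed 2-fold upward and 0.184% downward, and 0.830% and 0.763% passed 1.5-fold in these directions. The members' median was 0.13, beside 0.00 over all kept genes, with 5 members above 0, 2 below 0 and 1 at exactly 0. Of all 17958 kept genes, 5492 were above 0, 4172 below 0 and 8294 at exactly 0.

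In sleep-deprived over fear-conditioned, 1 of 8 members passed 2-fold upward and 0 downward, beside 0.134% and 0.869% of all kept genes. At 1.5-fold the counts were 1 and 0, beside 0.562% and 2.71% of all kept genes. The median over members was -0.17 and their mean 0.02, so these summaries differ in sign, and atp1a1a.4 alone lies above 0. The 3 comparisons share arrays, so they are 3 views of the same 3 values per gene.

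The widest range over the 3 arrays among the members was that of atp1a1a.4, at 1.41. The next were 0.46 for atp1a3b, 0.42 for the beta gene atp1b1a and 0.33 for atp1a1b. Signals of atp1a1a.4, a gene of the alpha 1 class, were 5.95 in sleep-deprived, 4.54 in fear-conditioned and 4.87 in naive brain. Sleep-deprived brain thus stood apart, with the other 2 arrays closer to each other. The log2 difference was 1.08 for sleep-deprived over naive, and 8 of 17958 kept genes had a higher one. For sleep-deprived over fear-conditioned it was 1.41, with 6 genes higher. For fear-conditioned over naive it was -0.33, a size that 5.86% of kept genes reached or passed. The gene rests on 1 probe set, and its naive value of 4.87 was shared by 103 probe sets of that array. It was listed with its sleep-deprived over naive difference known, so nothing is read from its rank or range.

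The range of atp1a1a.4 over the 3 arrays was 1.41, and 0.546% of kept genes had a range as large. The median range over all kept genes was 0.06, and 1 gene in 10 exceeded 0.41. When kept genes were divided into equal classes of low, middle and high mean level, atp1a1a.4 fell in the low class. There 0.668% of 5986 genes were at least 2-fold apart in either direction in sleep-deprived over naive, beside 0.885% in the middle and 0.735% in the high class. In fear-conditioned over naive the low, middle and high classes had 0.702%, 0.334% and 0.251%, and in sleep-deprived over fear-conditioned they had 1.09%, 1.25% and 0.668%.

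In the RefSeq gene order, atp1a1a.4 opens a row of 5 atp1a1a genes. Of its neighbours in that row, atp1a1a.1 and atp1a1a.2 had no probe set in the annotation used here. The signals of atp1a1a.3 were 2.45 in sleep-deprived, 2.76 in fear-conditioned and 2.82 in naive brain, all below the dim limit. Those of atp1a1a.5 were 3.03, 3.07 and 3.11 in the same order, also below it. Neither of these measured neighbours was higher in sleep-deprived brain. These genes are close copies of each other, and the probe sequences were not used here, so signal of one copy on the probe set of another was not tested. Near the row, beyond atp1a1a.4, rcan1b, which encodes a regulator of calcineurin, had signals of 8.67 in sleep-deprived, 8.76 in fear-conditioned and 8.76 in naive brain.

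The alpha 1 gene atp1a1b, which lies outside that row, differed the other way. Its signal was 11.2 in sleep-deprived, 11.4 in fear-conditioned and 11.6 in naive brain. Both treated conditions were below naive, with differences of -0.33 in sleep-deprived and -0.13 in fear-conditioned brain. Of all kept genes, 9.23% and 22.4% had differences at least that large in size.

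The last measured alpha member, atp1a3b, had signals of 10.5 in sleep-deprived, 10.8 in fear-conditioned and 10.4 in naive brain. Fear-conditioned brain was the highest, at 0.46 over naive or 1.37-fold, and 2.93% of kept genes had a difference as large in size. Sleep-deprived brain lay between, at 0.18 over naive. The probe set annotated to both atp1a3a and atp1a3b had 11.9 in sleep-deprived, 11.9 in fear-conditioned and 11.7 in naive brain. The first 2 of these values were identical, as in 40.2% of all probe sets, and both lay 0.20 above naive. Neuronal markers, 14 kept of 17 listed, had medians of 0.01 for the sleep-deprived and 0.00 for the fear-conditioned difference from naive, and their mean log2 levels were 10.02, 10.02 and 9.98 on the sleep-deprived, fear-conditioned and naive arrays. Their part in the atp1a3b difference was not tested.

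**Figure D2:**
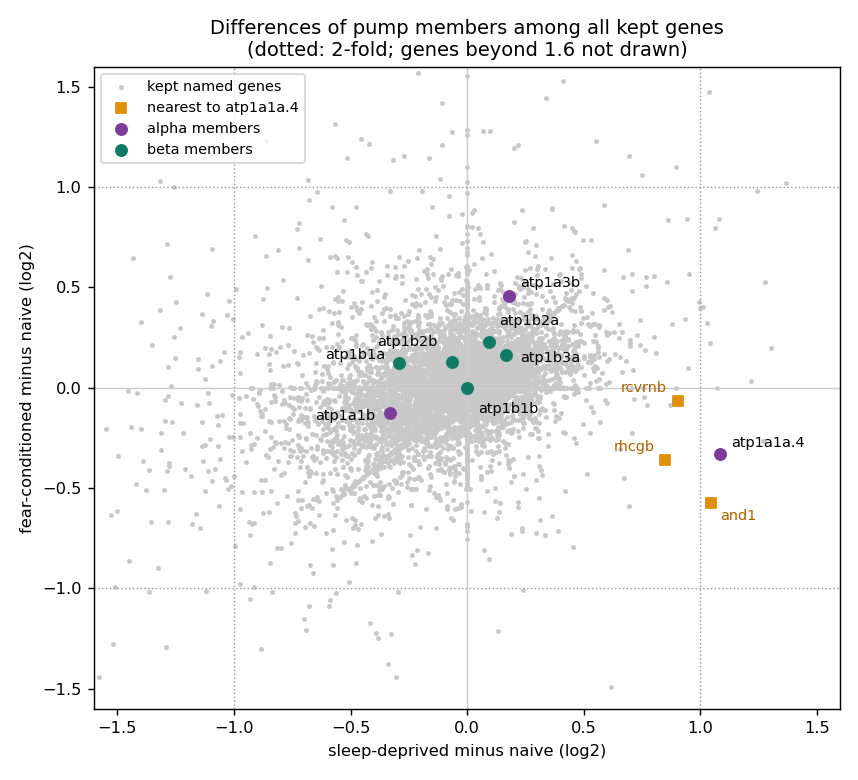
Log2 difference of fear-conditioned over naive (vertical axis) against that of sleep-deprived over naive (horizontal axis) for kept genes (grey), with dotted lines at 2-fold. Kept genes beyond the axis limits are not drawn. Alpha members are purple and beta members green. Orange squares mark the 3 genes nearest to atp1a1a.4 after clone, locus and similar names were left out. The point of atp1a1a.4 lies far right at 1.08 and below the middle at -0.33, and the other 7 members lie within 0.46 of 0 on both axes; both axes share the naive array.

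The beta 1 pair, atp1b1a and atp1b1b, is described next. Beta 1 is the widespread beta subunit of vertebrates. The signal of atp1b1a was 9.01 in sleep-deprived, 9.42 in fear-conditioned and 9.30 in naive brain. Sleep-deprived brain was lowest, at -0.29 against naive and -0.42 against fear-conditioned, and fear-conditioned was 0.13 above naive. For sleep-deprived over fear-conditioned, 6.24% of kept genes had a difference as large in size as that of atp1b1a.

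The second gene of the pair, atp1b1b, had 2 probe sets, one at 11.93 and the other at 12.03. Each of them held exactly the same value on the sleep-deprived, fear-conditioned and naive arrays. Such ties were common in the deposited values. Of all kept genes, 34.2% were equal on the 3 arrays, beside 1 of 8 members. How these ties arose is not known here, so a difference of 0.00 is not read as an unchanged transcript.

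Beta 2 is known in mammals as the adhesion molecule on glia, which joins neurons and astrocytes besides serving the pump. Its zebrafish gene atp1b2a had signals of 11.96 in sleep-deprived, 12.10 in fear-conditioned and 11.87 in naive brain. Both treated conditions were above naive, by 0.09 in sleep-deprived and 0.23 in fear-conditioned. The paralog atp1b2b had 8.73 in sleep-deprived, 8.93 in fear-conditioned and 8.80 in naive brain. Fear-conditioned brain was again the highest, at 0.13 over naive, and sleep-deprived brain was at -0.07. Sizes of 0.23 and 0.13 were reached by 10.9% and 22.6% of kept genes in fear-conditioned over naive.

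The beta 3 gene atp1b3a averaged 6.47 in sleep-deprived, 6.47 in fear-conditioned and 6.31 in naive brain over 2 probe sets. Its brighter probe set was at 7.91 in sleep-deprived, 7.91 in fear-conditioned and 7.78 in naive brain. The dimmer one was at 5.03, 5.03 and 4.83 in the same order. Both probe sets thus gave equal values in sleep-deprived and fear-conditioned brain and a lower one in naive brain, by 0.13 and 0.20. Values equal on the sleep-deprived and fear-conditioned arrays were held by 40.2% of all probe sets. Over the 1275 kept genes with more than 1 probe set, the differences of 1 gene's probe sets spanned a median of 0.08 for the sleep-deprived and 0.07 for the fear-conditioned difference from naive. The span exceeded 0.39 and 0.35 in 1 gene of 10, and the differences of the 5 beta members from naive all lay within these values in size.

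**Figure D3:**
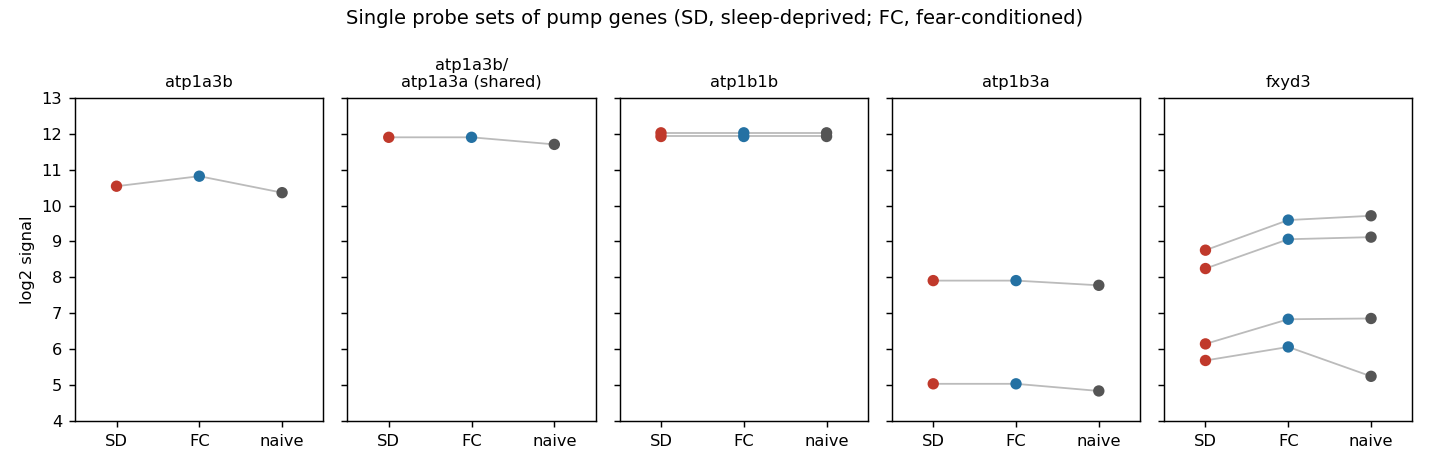
Log2 signal (vertical axis) of each probe set of atp1a3b, of the probe set shared by atp1a3b and atp1a3a, and of atp1b1b, atp1b3a and fxyd3 on the sleep-deprived (SD), fear-conditioned (FC) and naive arrays, with grey lines joining the values of 1 probe set. The lines of atp1b1b are flat, those of atp1b3a differ only at naive, and 3 of 4 fxyd3 lines are lowest in sleep-deprived brain.

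Taken by subunit, the 5 beta members had a median of 0.00 in sleep-deprived over naive, with differences from -0.29 to 0.16. That median was the tied value of atp1b1b, with 2 members above 0 and 2 below. For fear-conditioned over naive their median was 0.13, with 4 above 0, 1 at 0 and 0 below. Over all 17958 kept genes these counts were 5492, 8294 and 4172, so values above 0 were also the more common sign there. The 3 alpha members ran from -0.33 to 1.08 in sleep-deprived over naive and from -0.33 to 0.46 in fear-conditioned over naive. No direction was shared by the alpha members in either comparison.

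Beta genes outside the list differed little. Signals of atp1b3b were 10.69 in sleep-deprived, 10.74 in fear-conditioned and 10.68 in naive brain. Those of atp1b4, whose product left the pump for the nuclear envelope in placental mammals, were 10.90 in sleep-deprived, 10.90 in fear-conditioned and 10.93 in naive brain. Differences from naive were thus at most 0.06 in size for both genes.

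The pump's partners include the FXYD proteins, small membrane proteins that bind the alpha subunit and tune its affinity for ions, and the Nkain proteins, which interact with the beta 1 subunit. Of 11 listed names, 9 matched 8 measured genes, because 2 older names now stand for fxyd3. None of the 8 kept genes passed 1.5-fold in either comparison with naive. In sleep-deprived over naive 2 of them were below 0 and 6 at exactly 0, beside 5557 and 7956 of all 17958 kept genes. In sleep-deprived over fear-conditioned 2 genes, fxyd3 and fxyd7, were at least 1.5-fold lower, beside 2.71% of all kept genes.

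FXYD7 is a brain form in mammals. The zebrafish gene fxyd7 had signals of 8.22 in sleep-deprived, 8.97 in fear-conditioned and 8.62 in naive brain. The difference from naive was -0.40 in sleep-deprived and 0.35 in fear-conditioned brain, and that of sleep-deprived over fear-conditioned was -0.75. FXYD6, also a brain form in rodents, had its zebrafish gene fxyd6 at 9.504 in sleep-deprived, 9.345 in fear-conditioned and 9.504 in naive brain.

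The probe sets of fxyd3, whose mammalian counterpart is an epithelial protein, disagreed. Over 4 probe sets its mean signal was 7.21 in sleep-deprived, 7.89 in fear-conditioned and 7.73 in naive brain. In sleep-deprived over naive, 3 probe sets were at -0.96, -0.88 and -0.71 and the dimmest at 0.44. In fear-conditioned over naive, the same 3 were at -0.12, -0.06 and -0.02 and the dimmest at 0.82. The mean above naive in fear-conditioned brain thus came from 1 probe set. Skin epithelium markers, 9 kept of 9 listed, had a median difference from naive of -0.32 in sleep-deprived and of 0.98 in fear-conditioned brain, and their mean log2 levels were 4.65 in sleep-deprived, 6.04 in fear-conditioned and 5.04 in naive brain. Their part in the fxyd3 values was not tested. The remaining partners lay close to 0 on each comparison with naive. For fxyd5 the differences were 0.00 in sleep-deprived and 0.08 in fear-conditioned brain, for nkain1 they were 0.00 and 0.05, and for fxyd6l, nkain4, nkain5 and fxyd11 all were 0.00, while fxyd2 was below the dim limit at 2.84 on the 3 arrays.

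**Figure D4:**
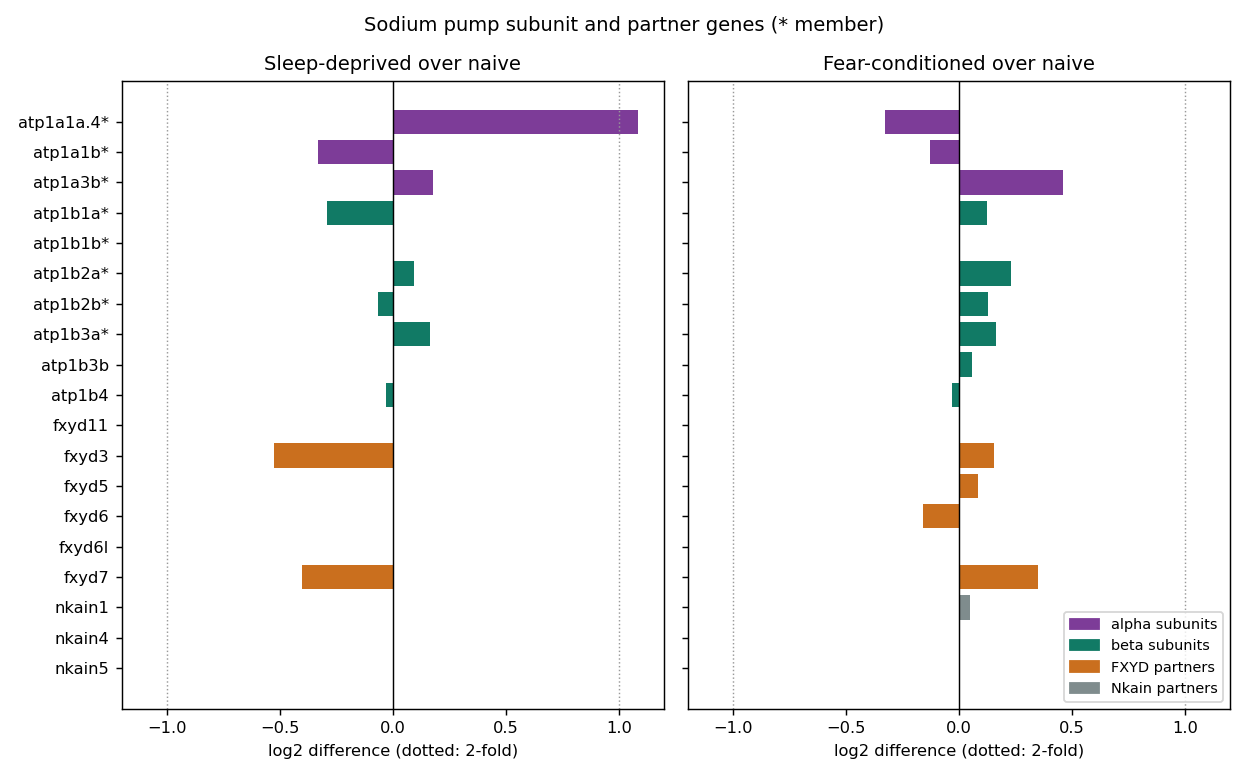
Log2 difference from naive (horizontal axis) of each kept subunit and partner gene in sleep-deprived (left) and fear-conditioned brain (right), with dotted lines at 2-fold and members marked by an asterisk. In the left panel atp1a1a.4 reaches 1.08 and fxyd3 and fxyd7 lie at -0.53 and -0.40; in the right panel atp1a3b is the longest bar at 0.46.

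Kept genes were ranked by Euclidean distance from atp1a1a.4 in the plane of the 2 differences with naive over the 3 arrays. Left out of the ranking were clone and locus names and, by the same filter, all symbols that begin with al, bx, cr, ct, cu or fp. Of the genes ranked, the nearest were rhcgb, and1 and rcvrnb. The distances were 0.24, 0.25 and 0.32. Signals of rhcgb, an ammonia transporter of zebrafish ionocytes, were 7.64 in sleep-deprived, 6.43 in fear-conditioned and 6.79 in naive brain. Those of and1, an actinodin of the fin fold, were 6.99, 5.37 and 5.95 in the same order. Those of rcvrnb, of the recoverin family of calcium sensors known from photoreceptors, were 8.15, 7.18 and 7.25. Since these genes were picked for their closeness to atp1a1a.4, nothing is read from their shared order of arrays.

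Because some cell types carry much sodium pump, marker lists were set beside these values. Ionocytes are epithelial cells of fish that take up ions with the pump's help. Of their 12 listed markers, 9 were kept, with a median of 0.00 in both comparisons with naive and mean log2 levels of 5.68 in sleep-deprived, 5.61 in fear-conditioned and 5.61 in naive brain. In sleep-deprived over naive 3 were above 0, 2 below 0 and 4 at exactly 0. In fear-conditioned over naive these counts were 3, 1 and 5, so tied values set both medians. Apart from rhcgb, at 0.85 in sleep-deprived over naive, no kept ionocyte marker was 1.5-fold apart from naive. Of all kept genes, 0.484% passed 1.5-fold upward and 2.43% downward in sleep-deprived over naive. The defining ionocyte factor foxi3a was at 4.69, 4.67 and 4.67 and foxi3b at 3.86, 4.12 and 4.12 on the sleep-deprived, fear-conditioned and naive arrays. The markers ca15a and slc12a10.2 were below the dim limit on the 3 arrays, and trpv6 had no probe set here. The part of ionocytes in the atp1a1a.4 difference was not tested.

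Of 14 listed photoreceptor and pineal markers, 13 were kept, and in sleep-deprived over naive their median was 0.24, with 11 above 0, 1 at 0 and 1 below 0. Of all 17958 kept genes, 4445 were above 0 in that comparison, with a median of 0.00. At 1.5-fold 3 markers were higher and 0 lower, beside 0.484% and 2.43% of all kept genes. Of these markers 2 passed 2-fold upward, beside 0.0947% of all kept genes, while gnb3b was at -0.17. The list was chosen with earlier results of these arrays known, so nothing is read from these shares. Their mean log2 levels were 5.50 in sleep-deprived, 5.07 in fear-conditioned and 5.13 in naive brain. The pineal opsin gene exorh was at 1.30 and pde6gb, a phosphodiesterase subunit, at 1.04 in sleep-deprived over naive. The list median for fear-conditioned over naive was 0.00, with 4 above 0, 3 below 0 and 6 at 0, and with otx5, a pineal transcription factor, at -1.01. The part of these cells in the atp1a1a.4 difference was not tested.

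Markers of radial astroglia, the astrocyte-like cells of the fish brain, gave no single direction, but their larger differences in sleep-deprived over naive were all below 0. Of 11 listed markers, 10 were kept, with a median of -0.07 and a mean of -0.25 in sleep-deprived over naive. Their mean log2 levels were 9.31 in sleep-deprived, 9.55 in fear-conditioned and 9.55 in naive brain. The filament gene gfap was at -0.91 and the aromatase gene cyp19a1b at -0.87 in sleep-deprived over naive, and these were the 2 markers of 10 past 1.5-fold. Of all kept genes, 2.43% passed 1.5-fold downward and 0.484% upward in that comparison. In all, 5 markers were below 0, 1 at 0 and 4 above 0. Those below 0 included glulb at -0.40, gja1b, listed as cx43, at -0.36 and s100b at -0.14. Those above 0 were glula and her4.1 at 0.08, fabp7a at 0.05 and slc1a3b at 0.003. In fear-conditioned over naive the median was -0.07, with 3 markers above 0, 6 below 0 and 1 at 0. There gfap, at 0.76, was the 1 marker past 1.5-fold, beside 0.830% of all kept genes upward and 0.763% downward. Those below 0 included gja1b at -0.40, glula at -0.21 and cyp19a1b at -0.10. The part of these cells in the lower atp1a1b and atp1b1a values was not tested. Microglia and macrophage markers, 9 kept, had medians of -0.73 for the sleep-deprived and -0.32 for the fear-conditioned difference from naive. In sleep-deprived over naive 8 were below 0 and 1 at 0, and 5 were at least 1.5-fold lower, beside 2.43% of all kept genes. In fear-conditioned over naive 3 were at least 1.5-fold lower, beside 0.763%, and ptprc was the 1 marker above 0, at 0.86. This list too was chosen with earlier results known, and the part of these cells was likewise not tested. For markers of ciliated ependyma and choroid plexus the medians were 0.00 and -0.07, for kidney tubule 0.00 and 0.00, for oligodendrocytes 0.00 and 0.01, and for red blood cells -0.05 and 0.00 in the same order. Each median of 0.00 here was a tied value, with 5 and 7 of 8 kidney tubule markers at exactly 0. Of all kept genes, 44.3% and 46.2% were at exactly 0 in these comparisons.

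Genes that work with or beside the pump were counted at the same thresholds, and with 0.484% to 2.43% of all kept genes past 1.5-fold in a given direction against naive, counts of 0 or 1 in lists of this size are not a result about the lists. Of 19 other P-type ATPases of cations, relatives of the pump that carry calcium, copper and other ions, 16 were kept. In sleep-deprived over naive 10 were above 0, 2 below 0 and 4 at 0, with a median of 0.02 and 0 genes past 1.5-fold. Of all 17958 kept genes, 4445 were above 0, 5557 below 0 and 7956 at 0 in that comparison. In fear-conditioned over naive the median was 0.08, and 1 gene passed 1.5-fold, atp2a1l, a calcium pump of the sarcoplasmic reticulum type, at 0.97. Its signals were 4.47 in sleep-deprived, 5.44 in fear-conditioned and 4.47 in naive brain. The lysosomal ATPase gene atp13a2 was at -0.36 in sleep-deprived and -0.31 in fear-conditioned brain over naive. Skeletal muscle markers, 9 kept of 10 listed, had mean log2 levels of 4.41 in sleep-deprived, 4.84 in fear-conditioned and 4.45 in naive brain. In fear-conditioned over naive 5 were above 0, 0 below 0 and 4 at exactly 0, with a median of 0.12. Of these markers 2 passed 2-fold upward, pvalb2 at 1.42 and ckma at 1.21, beside 0.245% of all kept genes. The list was chosen with earlier results known, so nothing is read from this share. The part of muscle in the atp2a1l value was not tested.

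Transporters that use the sodium gradient the pump makes, such as sodium-calcium and sodium-proton exchangers and the carriers of glutamate, GABA and bicarbonate, numbered 22 kept of 29 listed. Their median was 0.00 in both comparisons with naive, and 0 genes passed 1.5-fold in either. Tied values set both medians, with 8 genes at exactly 0 in sleep-deprived and 11 in fear-conditioned over naive. Of all kept genes, 44.3% and 46.2% were at exactly 0 in these comparisons. The bicarbonate cotransporter gene slc4a4b was at -0.56 in sleep-deprived over naive and the GABA transporter gene slc6a11b at -0.46 in fear-conditioned over naive. Genes of potassium uptake and chloride extrusion, 10 kept of 12 listed, also had a median of 0.00 in both and 0 genes past 1.5-fold. These medians too were tied values, with 3 and 4 genes at exactly 0. Among them slc12a5a, which encodes the neuronal chloride extruder KCC2, was at 0.48 in sleep-deprived over naive, and kcnj10b, a glial potassium channel gene, at -0.38 in fear-conditioned over naive.

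**Figure D5:**
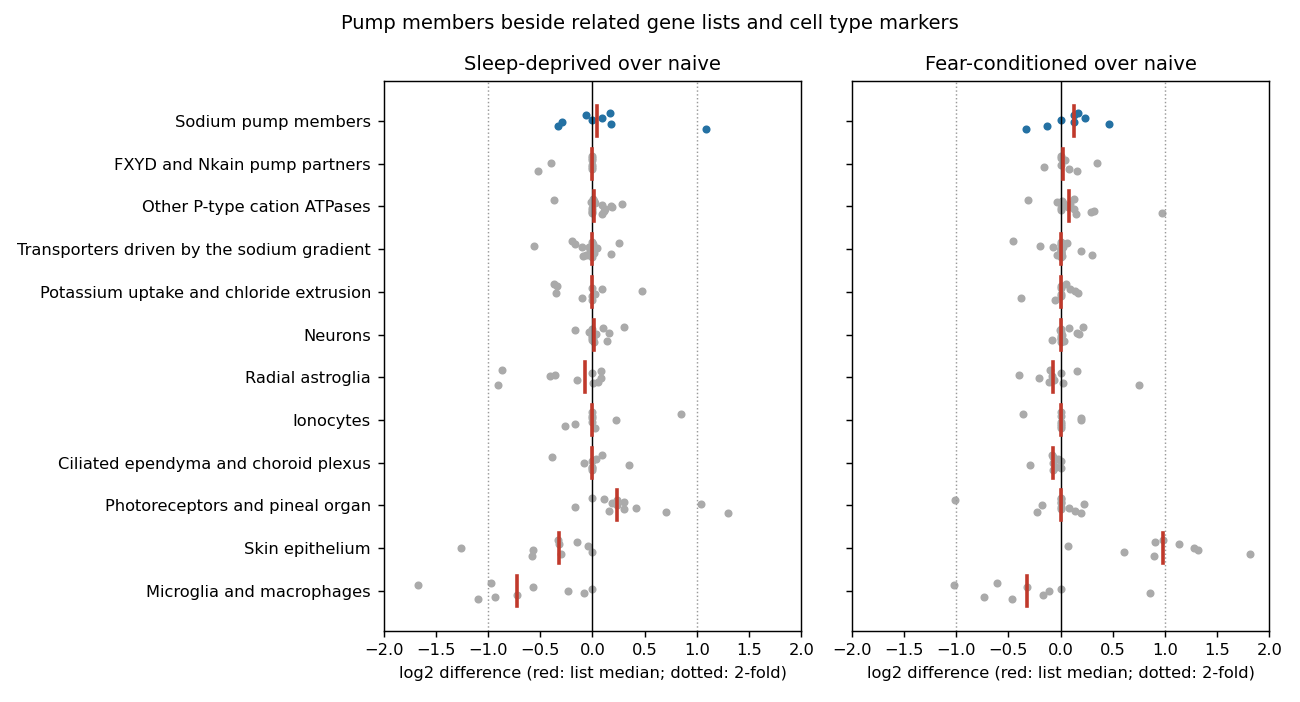
Log2 difference from naive (horizontal axis) of each kept gene of the pump members (blue), of related gene lists and of cell type markers (grey), in sleep-deprived (left) and fear-conditioned brain (right), with list medians in red. The pump members have 1 point past 2-fold, atp1a1a.4 on the left, and their medians are 0.05 and 0.13; the photoreceptor and pineal median on the left is 0.24.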

How the data were processed

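Total RNA was extracted with Trizol, and sense cDNA was fragmented and labelled with biotin, per the labels' protocols. The deposited table holds 1 value for each of 75212 probe sets on each of 3 arrays, read as log2 signals from their range of 0.605 to 13.4. The logarithm's base is not stated in the labels. The deposited arrays share a median of 4.99. Any normalization behind it is not described in the labels, and with equal medians a shift shared by all genes cannot be seen.

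Names came from the platform annotation, with 20806 probe sets of 1 symbol, 855 of several and 53551 unnamed. Of the probe sets with 1 symbol, 20323 matched RefSeq's gene table of assembly GRCz12tu. That table gave their current symbols, changed or not, and the gene order. Probe sets with several symbols were left out. Averaging probe sets gave 19260 genes, and 17958 whose highest array reached 3.45 were kept. Differences were counted at 2-fold, with 1.5-fold as an alternative. No test was possible with 1 array per condition. The counting was tested on simulated data (Python 3.11.15, statsmodels 0.14.6).

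The members and lists were chosen with earlier results of these arrays known. Genes named are all members, all measured subunit and partner genes, and rcan1b near the atp1a1a row. Of each described list, up to 3 genes with the largest size of difference from naive could be named. Further list genes are named as a check or to show how values within a list varied. Also named are the 3 genes nearest to any member past 1.5-fold after a name filter. The filter dropped clone and locus names and all symbols that begin with al, bx, cr, ct, cu or fp.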

Additional observations from a re-analysis of the deposited data

Results flagged for a closer look

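The probe set annotated to both atp1a3b and atp1a3a, which entered no comparison, gave a signal above that of the naive control. The log2 difference was 0.1976 in sleep-deprived over naive and 0.1976 in fear-conditioned over naive, because the 2 treated arrays held the same value. Such ties between these 2 arrays were common, with 40.2% of all 75212 probe sets equal on them. Which of the 2 genes it measures cannot be told apart here.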

How the results depend on the processing

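No paired analysis was possible because each condition has 1 array and no result comes from a test. Alternatives were centring on the median over named genes, quantile normalization, removal of a lowess trend (fraction 0.3), the brightest probe set, no dim filter, a dim filter at 4.99, dim values set to the limit, and a 1.5-fold threshold. The counts of members past the threshold were the same under each. The atp1a1a.4 difference for sleep-deprived over naive ran from 1.06 to 1.13, and that for sleep-deprived over fear-conditioned from 1.39 to 1.46. The brightest probe set and the dim settings could not alter these differences. The gene has 1 probe set, lies above 3.45 on each array and reaches 5.95. No member with a difference other than 0 changed sign. The differences of atp1b1b, 0.00 as deposited, took either sign, from -0.03 to 0.04 in sleep-deprived over naive. So did that of atp1b3a in sleep-deprived over fear-conditioned, also 0.00 as deposited, from -0.01 to 0.05. With the mean in place of the median, the members' summary for sleep-deprived over fear-conditioned was 0.0229 rather than -0.17, since the mean takes in the 1.41 of atp1a1a.4. The members' median for sleep-deprived over naive, 0.05 as deposited, was 0.0179 with quantile normalization, 0.0900 with centring and 0.104 as a mean.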

Other observations

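Deposited values repeat between probe sets as well as between arrays. The 75212 probe sets took 32403 distinct values on the sleep-deprived, 32134 on the fear-conditioned and 31139 on the naive array. Most pump members held values that no other probe set of the same array had, such as 11.2, 11.4 and 11.6 for atp1a1b, while 1 nkain1 probe set shared its value of 4.83 with 264 probe sets in all on the sleep-deprived, 268 on the fear-conditioned and 255 on the naive array.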
